A study of Mus musculus with 9 samples.

Results

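The genes described here are 9 mouse genes that are associated with trophoblast, the lineage that forms the fetal part of the placenta: Elf5, Cdx2, Hand1, Ascl2, Gata2, Gata3, Tfap2c, Tead4 and Plac1. They were taken by symbol from the gene expression table, in which 6 of the 9 were measured among 15074 genes. Elf5, Cdx2 and Plac1 were not analysed here. RNA sequencing of polyadenylated RNA was done on 9 libraries, 1 for each of 3 lines of J1 mouse embryonic stem cells (ESCs) at days 0, 2 and 4 of differentiation toward epiblast-like cells. The lines were wild type (WT), Dnmt1-/- (1KO), which lacks the methyltransferase that copies DNA methylation to newly replicated strands, and 1KO+1CI, which is 1KO carrying a transgene under the CAG promoter for DNMT1 with an inactivated catalytic site. ESCs were grown on mouse fibroblast feeder cells, which were removed by a short time on gelatin before the cells were taken through embryoid bodies into adherent culture without LIF, and the table holds 1 line of each genotype, the transgenic one carrying a single number that is presumably that of a clone. The comparison asks whether lineage genes were raised in lines without active DNMT1, on each day and in each mutant line. The paper describes more DNA methylation in the transgenic cells than in the knockout cells they were made from. This rests on dot blots, staining around centromeres, and bisulfite sequencing of major satellite repeats. The paper describes no change at IAPEz retrotransposons and minor satellite repeats. It also describes a genome-wide gain in the transgenic cells early in differentiation, as in wild-type cells. Methylation was not measured here, so a difference shared by both mutant lines cannot be read as an effect of its loss. The measured genes did not move as 1 group. Gata2 was above WT in both mutant lines on all 3 days, by 1.63-fold to 6.51-fold, and Hand1 was above WT in 5 of 6 comparisons. The lowest of these Gata2 ratios was within counting error of 1, and the highest rested on about 10 reads in WT. Tfap2c and Tead4 were below WT in both mutant lines at day 2 and above WT at day 4, and Ascl2 went the opposite way.

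In the mouse blastocyst, the outer cells become trophectoderm and the inner cells give rise to the embryo. TEAD4, with its coactivator YAP, starts the trophectoderm program in the outer cells, in which CDX2 and GATA3 act, and TFAP2C and ELF5 help to keep trophoblast stem cells self-renewing. ASCL2, HAND1, GATA2 and PLAC1 are known from later steps, in the spongiotrophoblast precursors and giant cells of the placenta. ESCs normally do not form trophoblast, and DNA methylation of the Elf5 promoter is a textbook part of that barrier. Several of these genes are also used elsewhere: Tfap2c in naive pluripotent and germ cells, Hand1 in mesoderm and heart, Gata2 in blood precursors, and Gata3 in T cells and skin.

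The measured genes lie, in GENCODE M21 on GRCm38, as Tead4 at chr6:128224288-128300823 (minus strand), Tfap2c at chr2:172549593-172558622 (plus strand), Gata3 at chr2:9857078-9890034 (minus strand), Gata2 at chr6:88193891-88207032 (plus strand), Hand1 at chr11:57828705-57832818 (minus strand) and Ascl2 at chr7:142966829-142969264 (minus strand). The sequences below are the 250 bases before the annotated start of 3 of the measured genes, from RefSeq on GRCm38.p6. They are shown because the CpG dinucleotide, in capitals, is the site that DNMT1 keeps methylated. Each is written 5′ to 3′ on the strand of its gene. The 2 Gata2 windows belong to separate starts (chr6:88193641-88193890 and chr6:88198414-88198663, plus strand). The Ascl2 window (chr7:142969265-142969514, minus strand) lies directly before the gene, and the Gata3 window (chr2:9878601-9878850, minus strand) lies inside the longer span that GENCODE M21 gives for Gata3.
Gata2, upstream start: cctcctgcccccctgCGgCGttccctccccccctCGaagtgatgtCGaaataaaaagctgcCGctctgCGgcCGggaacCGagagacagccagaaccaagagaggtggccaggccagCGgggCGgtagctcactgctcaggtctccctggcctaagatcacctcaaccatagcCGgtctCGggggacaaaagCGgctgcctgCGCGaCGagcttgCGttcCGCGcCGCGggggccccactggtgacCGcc
Gata2, downstream start: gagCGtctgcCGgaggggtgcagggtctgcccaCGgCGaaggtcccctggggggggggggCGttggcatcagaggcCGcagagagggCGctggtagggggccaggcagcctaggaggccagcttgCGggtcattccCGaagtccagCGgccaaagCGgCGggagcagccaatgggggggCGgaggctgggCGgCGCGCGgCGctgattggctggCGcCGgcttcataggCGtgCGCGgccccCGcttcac
Ascl2: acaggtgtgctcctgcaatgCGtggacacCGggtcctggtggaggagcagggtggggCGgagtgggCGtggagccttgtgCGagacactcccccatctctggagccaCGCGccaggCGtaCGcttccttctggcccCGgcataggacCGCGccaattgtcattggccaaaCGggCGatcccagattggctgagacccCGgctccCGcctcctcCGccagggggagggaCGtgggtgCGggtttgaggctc
Gata3: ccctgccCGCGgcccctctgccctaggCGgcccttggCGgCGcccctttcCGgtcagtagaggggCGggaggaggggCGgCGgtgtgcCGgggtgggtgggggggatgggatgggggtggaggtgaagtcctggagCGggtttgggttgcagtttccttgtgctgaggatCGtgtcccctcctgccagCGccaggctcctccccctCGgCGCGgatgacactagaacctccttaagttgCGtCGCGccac
The letters CG (a motif that reads the same on both strands) occurred 22 and 24 times in the Gata2 windows, 19 times in the Ascl2 window and 19 times in the Gata3 window. Over 32851 RefSeq promoter windows of the same length the median was 6, and 92.1% of windows held CG at least 1 time. The genes that were not analysed for expression had fewer: 13 in the Cdx2 window, 2 and 8 in the windows of Elf5, and 2 and 4 in those of Plac1. Windows of 6 of the 9 genes were matched by symbol. These are counts of letters, and methylation of the windows was not measured here.

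Dnmt1, the targeted gene, followed the labels: its level was 48.5 to 80.4 FPKM in the WT libraries, 12.3 to 17.4 FPKM in those of 1KO and 129 to 315 FPKM in those of 1KO+1CI. FPKM counts reads relative to transcript length and library size. The steps between low FPKM values gave a depth of 20134000 to 27998000 counts per library, if 1 step is 1 counted read. Pou5f1, which defines pluripotent cells, stood at 632 to 1008 FPKM in the 9 libraries. The summed level of 9 measured fibroblast genes at day 0 was 232 FPKM for WT, 370 for 1KO and 390 for 1KO+1CI, at day 2 it was 117 to 154, and at day 4 it was 207, 235 and 591 in the same order of lines. Most of the day 4 sum was Tagln, with 171, 177 and 417 FPKM. At day 0 Tagln was at 100, 105 and 91.8 FPKM, so the higher day 0 sums of the mutant lines came mainly from the other genes. The collagen gene Col1a1 had day 0 levels of 39.0, 76.0 and 74.4 FPKM, and day 4 levels of 5.07, 3.76 and 9.86. In the fit given below, 7 of the 9 genes were called lower at day 4 than at day 0, and 1 (Tagln) higher. The day 4 sum is therefore no measure of feeder content. The table holds no value of 0, and listed genes without a row in it were not analysed here. In such bulk samples, fewer cells of a type and less RNA per cell cannot be told apart.

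Tfap2c was well above the other 5 genes in level, with a mean over the 9 libraries of 16.3 FPKM, higher than 71.3% of all genes. Tead4 (2.93 FPKM), Ascl2 (2.29) and Hand1 (1.63) followed, above 25.3 to 34.2% of genes. Gata2 (0.965 FPKM) and Gata3 (0.543) were lower still, and Gata3 reached 1 FPKM in 0 of the 9 libraries. Neighbours in the order from Tead4 to Gata2 overlapped in their ranges over libraries: Tead4 spanned 1.20 to 5.17 FPKM, Ascl2 0.750 to 4.52, Hand1 0.601 to 4.56 and Gata2 0.142 to 2.97. Hand1 and Ascl2 gave whole reads in every library, 24 to 243 and 25 to 153 reads. For the other genes whole reads were not recovered, and their reads (10 to 278 for Gata2, 11 to 76 for Gata3, 60 to 296 for Tead4 and 75 to 3116 for Tfap2c) are approximate.

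**Figure D1:**
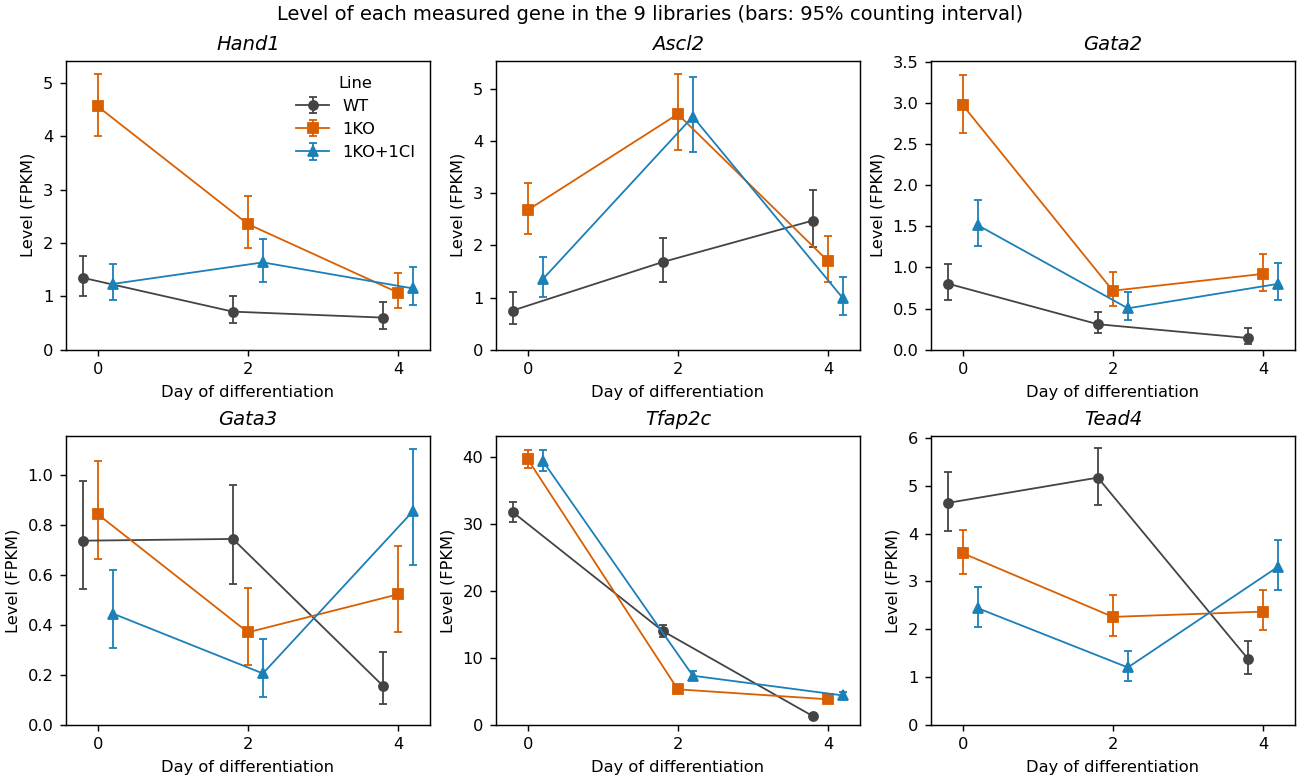
Level in FPKM (vertical axes, starting at 0) of the 6 measured genes at days 0, 2 and 4 (horizontal axes) in WT (circles), 1KO (squares) and 1KO+1CI (triangles); each point is 1 library, and bars are 95% counting intervals, which do not include variation between cultures. Gata2 was above WT in both mutant lines on all 3 days, whereas the lines cross between days 2 and 4 for Ascl2, Gata3, Tfap2c and Tead4.

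Tead4 encodes the DNA-binding partner of YAP. In WT it was at 4.64, 5.17 and 1.38 FPKM at days 0, 2 and 4, in 1KO at 3.59, 2.26 and 2.37, and in 1KO+1CI at 2.44, 1.20 and 3.31. Both mutant lines were thus below WT at days 0 and 2, and both were above WT at day 4, when the WT level was low. At day 2 the ratio to WT was 0.436 in 1KO (95% counting interval 0.346 to 0.542) and 0.232 in 1KO+1CI (0.173 to 0.307). At day 4 it was 1.72 (1.27 to 2.35) and 2.40 (1.80 to 3.25). Each counting interval was derived from the exact Clopper-Pearson limits for the reads of a pair of libraries, and covers counting error only.

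Tfap2c, which encodes the AP-2 gamma factor, was high at day 0 in every line, with 31.8 FPKM for WT, 39.7 for 1KO and 39.4 for 1KO+1CI. By day 2 the same 3 lines had 14.0, 5.28 and 7.32 FPKM, and by day 4 1.27, 3.79 and 4.37. The mutant lines were therefore below WT at day 2 and above it at day 4. The day 2 ratios to WT were 0.378 (0.331 to 0.430) for 1KO and 0.523 (0.465 to 0.586) for 1KO+1CI. The day 4 ratios were 2.99 (2.29 to 3.91) and 3.44 (2.64 to 4.51), and the day 0 ratios were 1.25 (1.18 to 1.32) and 1.24 (1.17 to 1.32). On the log2(FPKM + 1) scale, the difference between days 0 and 2 was −2.69 in 1KO and −2.28 in 1KO+1CI, against −1.13 in WT, and that between days 2 and 4 was −0.39 and −0.63, against −2.72 in WT.

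Gata3 stayed below 1 FPKM throughout. It was at 0.738, 0.745 and 0.156 FPKM in WT at days 0, 2 and 4, at 0.845, 0.371 and 0.523 in 1KO, and at 0.446, 0.206 and 0.857 in 1KO+1CI. The order of the lines at day 2, with WT highest, was the opposite of that at day 4, with WT lowest. At day 4 the ratio to WT was 3.36 (1.61 to 6.97) for 1KO and 5.51 (2.70 to 11.1) for the transgenic line, with about 11 reads in the WT library. At day 2 it was 0.497 (0.299 to 0.811) and 0.276 (0.142 to 0.502).

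Gata2 was the gene with the same order of lines on each day. It was at 0.804, 0.309 and 0.142 FPKM in WT at days 0, 2 and 4, at 2.97, 0.717 and 0.922 in 1KO, and at 1.51, 0.503 and 0.800 in 1KO+1CI. On every day 1KO was highest, 1KO+1CI was between, and WT was lowest, although the level of 1KO+1CI at day 2 lay below that of WT at day 0. For 1KO the ratio to WT on these days was 3.70 (2.78 to 5.07), 2.32 (1.41 to 3.91) and 6.51 (3.29 to 14.0). For 1KO+1CI it was 1.88 (1.37 to 2.67), 1.63 (0.963 to 2.87) and 5.65 (2.84 to 12.4), so that the interval at day 2 included a ratio of 1. The day 4 ratios to WT rest on about 10 reads in WT. Between the mutant lines, the ratio of 1KO+1CI to 1KO was 0.701 (0.450 to 1.11) at day 2 and 0.868 (0.603 to 1.27) at day 4. Both intervals included 1, so the order of the mutant lines was beyond counting error at day 0 only.

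Hand1, a basic helix-loop-helix factor needed for giant cells, was at 1.35, 0.713 and 0.601 FPKM in WT at days 0, 2 and 4, at 4.56, 2.36 and 1.07 in 1KO, and at 1.23, 1.64 and 1.15 in 1KO+1CI. The 1KO line stood out at day 0 with 243 reads against 53 in WT and 56 in 1KO+1CI. For 1KO the ratio to WT on these days was 3.38 (2.50 to 4.64), 3.30 (2.20 to 5.07) and 1.78 (1.07 to 3.05). In 1KO+1CI it was 0.914 (0.616 to 1.36), 2.30 (1.49 to 3.59) and 1.91 (1.14 to 3.29). Hand1 in 1KO+1CI thus differed from WT by less than counting error at day 0, and was above WT later.

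Ascl2, a basic helix-loop-helix factor of spongiotrophoblast precursors, is imprinted and maternally expressed, and lies on distal chromosome 7 in the same imprinted domain as Phlda2 and Cdkn1c. In WT it was at 0.750, 1.68 and 2.48 FPKM at days 0, 2 and 4. In 1KO it was at 2.68, 4.52 and 1.70 FPKM, and in 1KO+1CI at 1.35, 4.47 and 0.984. The WT level was highest at day 4, and the level of both mutant lines was highest at day 2. The ratio to WT at day 2 was 2.69 (2.00 to 3.64) for 1KO and 2.66 (1.98 to 3.60) for the transgenic line, with 153 reads in each mutant library against 66. At day 4 it was 0.686 (0.486 to 0.965) and 0.397 (0.256 to 0.604).

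For comparison with the other genes of the table, differences were taken on the log2(FPKM + 1) scale and called at a size of at least 1, which is 2-fold after adding 1 FPKM and understates the change of genes near or below 1 FPKM. There is 1 library per line and day, so these calls have no replicate check and no p-value. At day 0, Hand1 (1.24), Gata2 (1.14) and Ascl2 (1.07) passed upward in 1KO, 3 of the 6 genes, beside 2.24% of all genes, and 0 passed downward beside 1.55%. At day 2, Ascl2 (1.04) passed upward in 1KO beside 1.6% of genes and Tfap2c (−1.25) downward beside 0.663%. At day 4, Tfap2c (1.08) was the gene past the threshold in 1KO, upward, where 1.67% of all genes passed upward and 0.59% downward. On days 0, 2 and 4 the 6 genes had median differences between 1KO and WT of 0.69, 0.02 and 0.45, with medians over all genes of −0.01, 0.00 and 0.00.

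In 1KO+1CI, 0 of the 6 genes passed the threshold against WT at day 0, where 2.54% of all genes passed upward and 1.97% downward. At day 2 Ascl2 (1.03) passed upward, beside 2.28% of genes, and Tead4 (−1.49) downward, beside 1.26%. At day 4 Tfap2c (1.24) passed upward, beside 3.01% of genes, and none of the 6 downward, beside 1.02%. The medians of the 6 genes were 0.11, −0.17 and 0.67 at days 0, 2 and 4. Both mutant lines were set against the same WT libraries, and their values are given side by side for that reason. Counts also depended on the pseudocount: with 0.1 in place of 1, the count at day 4 in 1KO+1CI was 4 upward (Gata2, Gata3, Tfap2c and Tead4), beside 7.3% of all genes, and 1 downward (Ascl2), beside 4.09%.

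**Figure D2:**
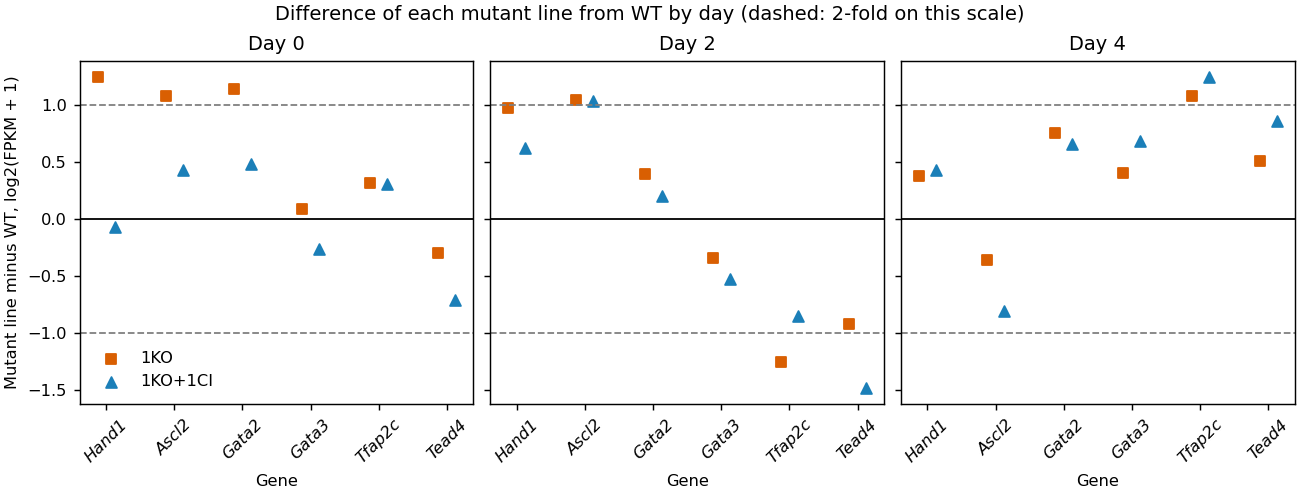
Difference from WT in log2(FPKM + 1) (vertical axis) of the 6 genes (horizontal axis) at days 0, 2 and 4 for 1KO (squares) and 1KO+1CI (triangles), each point the difference of 2 single libraries; dashed lines mark the 2-fold threshold. At day 0 Hand1, Ascl2 and Gata2 in 1KO lie above the upper line, at day 2 Ascl2 lies above it in both lines, and at day 4 Tfap2c lies above it in both lines. Below the lower line at day 2 lie Tfap2c in 1KO (−1.25) and Tead4 in 1KO+1CI (−1.49).

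The transgenic line was then set against 1KO itself, with 1 library a side. The paper describes the transgenic cells as zeocin-selected and grown from isolated colonies. Effects of inactive DNMT1 and of this selection cannot be told apart here. At day 0 each of the 6 genes had a lower level in the transgenic line, with a median of −0.53. Of all genes, 47.6% were higher there, with a median of −0.01. A single gene of the 6 was past 2-fold: Hand1 (−1.32, a ratio of 0.270 with an interval of 0.198 to 0.363), where 0.418% of all genes passed in either direction. The ratio was 0.504 (0.357 to 0.703) for Ascl2, 0.509 (0.409 to 0.634) for Gata2, 0.528 (0.340 to 0.796) for Gata3, 0.680 (0.545 to 0.840) for Tead4 and 0.994 (0.943 to 1.05) for Tfap2c. At days 2 and 4 none of the 6 genes passed, beside 0.338% and 0.915% of all genes. At day 2 the ratios of the 6 genes ran from 0.531 for Tead4 to 1.38 for Tfap2c, and at day 4 from 0.579 for Ascl2 to 1.64 for Gata3. The fibroblast genes summed to 370 FPKM in 1KO and 390 in 1KO+1CI at day 0. As means over the 3 days in log2(FPKM + 1), 9 of 9 of them were higher in 1KO+1CI than in 1KO, with a median of 0.38. Their part in the differences of Hand1, Ascl2 and Gata2 between these lines was not tested.

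A line effect shared by the 3 days was estimated with limma from all 9 libraries, with line and day as additive terms. Its error is the departure of single libraries from additivity and not a spread between cultures. Each gene has 4 residual degrees of freedom, and 8.0 in total after limma moderates the error over all genes. Over both mutant lines against WT, Gata2 was higher by 0.60 on the log2(FPKM + 1) scale (95% interval 0.29 to 0.92, limma adjusted p = 0.0457), and it was the only one of the 6 genes called, beside 2.18% of all genes upward and 2.97% downward. The Gata2 call was lost on leaving out any 1 of the 9 libraries, with adjusted p between 0.0584 and 0.143 and a difference between 0.50 and 0.76. The other 5 genes were not called: Hand1 at 0.59 (0.11 to 1.07, limma adjusted p = 0.155), Ascl2 at 0.40 (−0.25 to 1.05, adjusted p = 0.471), Tfap2c at 0.14 (adjusted p = 0.861), Gata3 at 0.00 (adjusted p = 0.994) and Tead4 at −0.34 (adjusted p = 0.600). Without the WT day 4 library, Ascl2 was called at 0.89 (limma adjusted p = 0.0354).

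Taken line by line, none of the 6 genes was called by limma. In 1KO against WT, 1.86% of all genes were called, and Gata2 was at 0.76 (adjusted p = 0.0575) and Hand1 at 0.86 (adjusted p = 0.139), the 2 genes with an unadjusted p under 0.05, beside 15.0% of all genes. In 1KO+1CI against WT, 3.93% of all genes were called, and Gata2 was at 0.45 (adjusted p = 0.163), the 1 gene with an unadjusted p under 0.05, beside 20.5% of all genes. Between 1KO+1CI and 1KO the single gene called was Dnmt1 (0.00663% of all genes), and 0 of the 6 genes had an unadjusted p under 0.05, beside 3.74% of all genes. The interval for Hand1 in this comparison ran from −1.09 to 0.02 and that for Gata2 from −0.68 to 0.05.

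**Figure D3:**
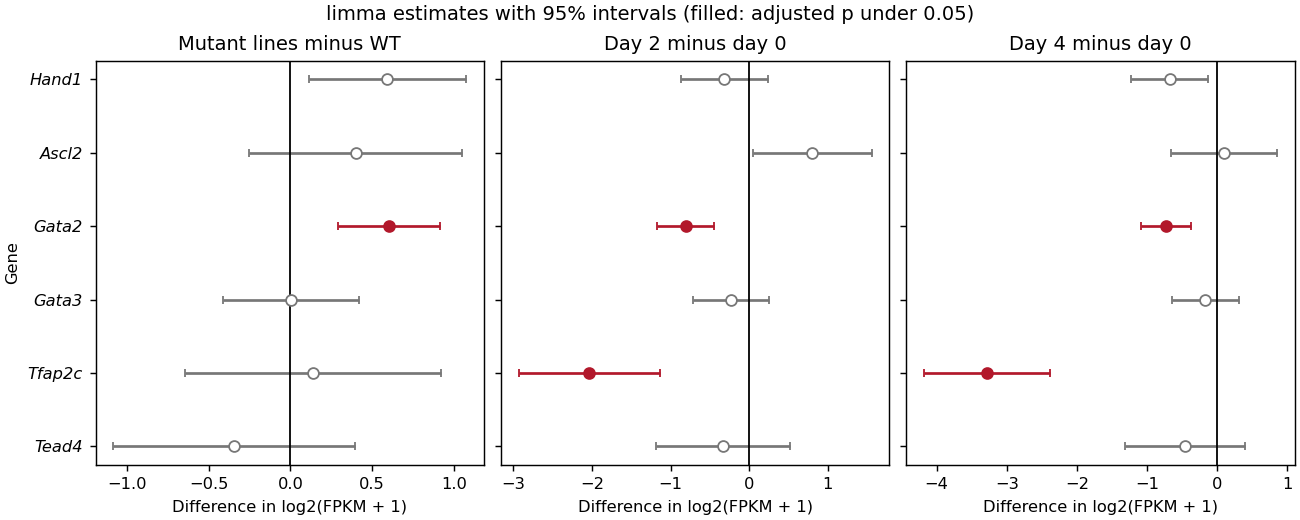
Estimates from the limma fit (points) with 95% intervals (bars) in log2(FPKM + 1) on the horizontal axes for the 6 genes (vertical axis): mean of both mutant lines minus WT, day 2 minus day 0 and day 4 minus day 0. Filled red points have an adjusted p under 0.05: Gata2 in all 3 panels (0.60, −0.81 and −0.73) and Tfap2c in both day panels (−2.03 and −3.28).

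Over the 3 lines, Tfap2c and Gata2 fell with differentiation. From day 0 to day 2 Tfap2c fell by 2.03 (limma adjusted p = 0.0146) and Gata2 fell by 0.81 (adjusted p = 0.0155), 2 of 6 genes, beside 8.11% of all genes called downward, and none of the 6 was called upward, beside 7.34%. From day 0 to day 4 Tfap2c fell by 3.28 (limma adjusted p = 0.00156) and Gata2 fell by 0.73 (adjusted p = 0.0145), beside 12.3% of all genes downward, and none upward, beside 11.3%. Hand1 was at −0.68 at day 4 (adjusted p = 0.0770) and Ascl2 at 0.81 at day 2 (adjusted p = 0.132), short of the threshold. The call at day 4 for Tfap2c held on leaving out any 1 library (9 of 9), while that at day 2 held in 5 of 9 and was lost without the day 0 or day 2 library of either mutant line. For Gata2 the call at day 2 held in 6 of 9 (lost without 1KO day 0, 1KO day 2 or 1KO+1CI day 2) and that at day 4 in 7 of 9 (lost without 1KO day 0 or 1KO day 4). Ascl2 was called upward at day 2 without the WT day 4 library, and Hand1 downward at day 4 without the 1KO+1CI day 0 library. Fibroblast genes also fell from day 0, 7 of 9 at day 2 and 7 of 9 at day 4 (with 1 called upward, Tagln), and their part in the Gata2 and Tfap2c differences was not tested.

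The fibroblast genes moved with some line differences as well. Over both mutant lines against WT their median was 0.72, with 1 of 9 called (Col1a2, 0.89, limma adjusted p = 0.0101) and 7 of 9 higher with an unadjusted p under 0.05, beside 10.5% of all genes higher and 10.7% lower at that p. At day 0, 9 of 9 fibroblast genes in 1KO and 8 of 9 in 1KO+1CI were above WT, at day 2 it was 8 of 9 in both, and at day 4 it was 7 of 9 and 8 of 9. Acta2 (1.05, adjusted p = 0.109), Col1a2 and Thy1 (0.85, adjusted p = 0.0653) were highest in difference, and Tagln (−0.02, adjusted p = 0.974), Col3a1 (0.46, adjusted p = 0.351) and Col1a1 (0.62, adjusted p = 0.126) lowest. Their part in the levels of Hand1, Gata2 and Ascl2 was not tested.

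The wider trophectoderm genes were taken from lists made from general knowledge. Of 14 other regulators of trophectoderm and trophoblast stem cells, 0 were called by limma over both mutant lines against WT. With an unadjusted p under 0.05, 1 was higher. Their median was 0.08, beside 0.00 for all genes. In 1KO 11, 6 and 11 of the 14 were above WT at days 0, 2 and 4, and in 1KO+1CI 9, 5 and 12. Eomes, a T-box factor of trophoblast stem cells and of the primitive streak, was the highest of them in difference (0.61, adjusted p = 0.372). It was at 1.55, 2.81 and 8.51 FPKM in WT at days 0, 2 and 4, at 1.91, 2.98 and 29.9 in 1KO, and at 1.06, 2.65 and 38.5 in 1KO+1CI. In 1KO+1CI it was below WT at days 0 and 2, and in both lines the difference from WT was largest at day 4. Msx2 (0.53, adjusted p = 0.249) and Fgfr2, the receptor for the FGF4 signal that maintains trophoblast stem cells (0.43, adjusted p = 0.246), came next, and Satb1 (−0.36, adjusted p = 0.452), Arid3a (−0.31, adjusted p = 0.458) and Gata1 (−0.06, adjusted p = 0.841) were at the other end.

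A further list held 13 measured genes: other TEAD factors, YAP and its relative, regulators of YAP, and targets. Of these, 1 was called: Tead2, a TEAD factor expressed in ESCs, was lower (−0.45, limma adjusted p = 0.0453). It was at 79.7, 35.6 and 88.2 FPKM in WT at days 0, 2 and 4. In 1KO it was at 53.1, 26.1 and 80.0, and in 1KO+1CI at 47.0, 28.3 and 63.5. Tead2 was thus lower than WT in both mutant lines on each day, unlike Tead4, which was above WT at day 4. The median of the list was 0.12. Above WT at days 0, 2 and 4 were 3, 6 and 11 of the 13 in 1KO, and 4, 8 and 12 in 1KO+1CI. Lats2, a kinase that restrains YAP (0.55, adjusted p = 0.117), Wwtr1, which encodes the YAP relative TAZ (0.39, adjusted p = 0.261), and Amot (0.37, adjusted p = 0.259) had the largest positive differences. Nf2 (−0.41, adjusted p = 0.225) and the YAP target Ccn2 (−0.02, adjusted p = 0.932) were among the lowest 3 with Tead2.

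Of 12 genes of the trophectoderm epithelium, 0 were called, 1 was higher with an unadjusted p under 0.05, and the median was −0.01. That median runs over days that differed. In 1KO 4, 5 and 11 of the 12 were above WT at days 0, 2 and 4, and in 1KO+1CI 3, 5 and 11. At day 4, 50.7% of all genes were above WT in each mutant line. Tinagl1 (0.96, limma adjusted p = 0.120), the water channel gene Aqp3 (0.31, adjusted p = 0.523) and the sodium pump subunit gene Atp1b1 (0.17, adjusted p = 0.304) were highest in difference. The tight junction gene Cldn4 (−0.53, adjusted p = 0.282) and the keratin genes Krt18 (−0.28, adjusted p = 0.722) and Krt7 (−0.15, adjusted p = 0.704) were lowest. Krt18 was at 114, 54.7 and 69.9 FPKM in WT at days 0, 2 and 4, at 83.1, 42.5 and 103 in 1KO, and at 31.9, 33.8 and 145 in 1KO+1CI. As with Tead4, the mutant lines were below WT at days 0 and 2 and above it at day 4.

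Of 26 genes of placental differentiation, 14 were measured, and limma called 1 upward and 2 downward over both mutant lines. Peg10, a paternally expressed imprinted gene of retrotransposon origin that the placenta requires, was higher by 1.44 (adjusted p = 0.0236), at 78.2, 85.9 and 51.1 FPKM in WT at days 0, 2 and 4, 159, 194 and 184 in 1KO, and 116, 239 and 316 in 1KO+1CI. Cdkn1c, which encodes the cell cycle inhibitor p57 and is maternally expressed, was lower (−1.87, adjusted p = 0.0323), and Phlda2, a maternally expressed brake on placental growth, was also lower (−1.21, adjusted p = 0.0256). Cdkn1c was at 17.5, 21.8 and 42.7 FPKM in WT, 8.32, 11.1 and 4.45 in 1KO, and 5.59, 8.86 and 2.48 in 1KO+1CI. Ascl2, from the same imprinted domain, was above WT in both mutant lines at days 0 and 2 and below it at day 4. The median of the 14 genes was 0.05; Sct (1.15, adjusted p = 0.0734), Epas1 (0.75, adjusted p = 0.0692) and Mmp9 (−0.58, adjusted p = 0.207) were the other genes at the ends of the list.

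**Figure D4:**
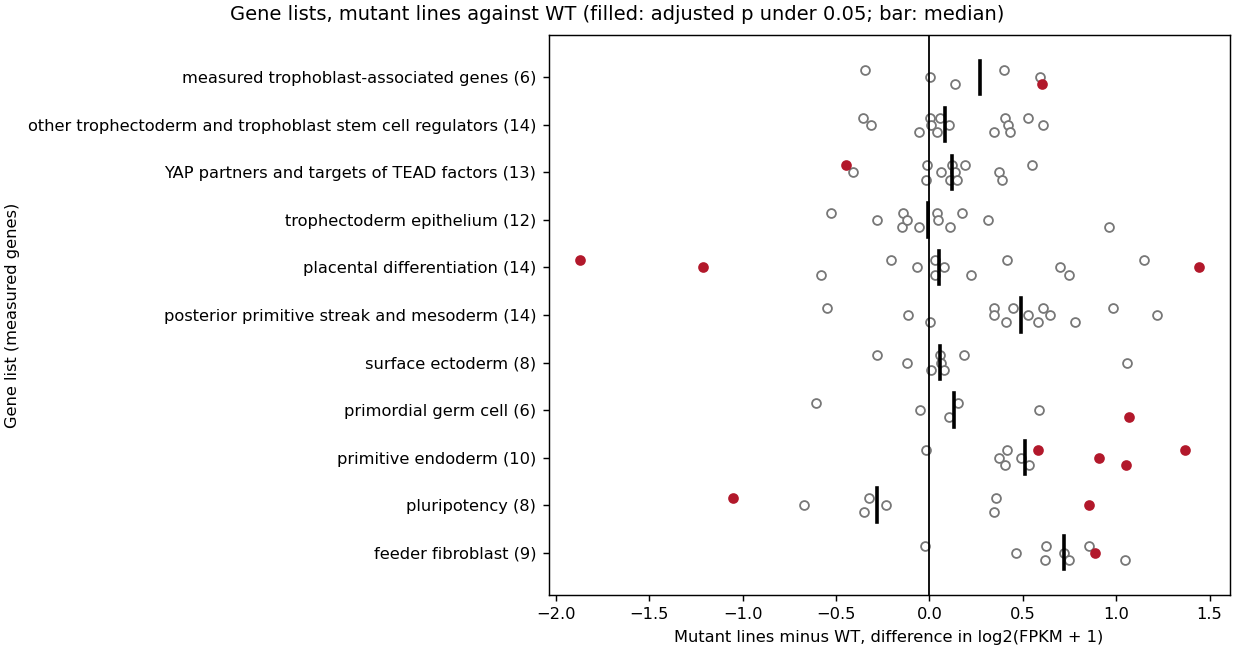
Difference over both mutant lines against WT in log2(FPKM + 1) (horizontal axis) for each measured gene of the 6 trophoblast-associated genes and of 10 further lists (vertical axis, number measured in brackets). Circles are genes, filled red where the limma adjusted p was under 0.05, and black bars are medians. The 6 genes have 1 filled circle (Gata2), and the lists with the most filled circles are primitive endoderm with 4 and placental differentiation with 3.

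Hand1, Gata2 and Eomes are also expressed outside trophoblast, so genes of neighbouring lineages are given beside them. Of 14 measured genes of the posterior primitive streak and mesoderm, 0 were called by limma, 3 were higher and 1 lower with an unadjusted p under 0.05, and the median was 0.49. T (Brachyury) was at 0.782, 0.282 and 2.07 FPKM in WT, 1.27, 0.490 and 29.2 in 1KO, and 0.901, 0.438 and 27.2 in 1KO+1CI at days 0, 2 and 4 (1.22, adjusted p = 0.227). Fgf8 (0.98, adjusted p = 0.424) and Mixl1 (0.78, adjusted p = 0.297) were likewise high at day 4 in the mutant lines, with Fgf8 at 84.5 FPKM in 1KO against 8.51 in WT. Each of the lines had its lowest Hand1 level on that day, in 1KO+1CI by less than counting error from day 0. The Hand1 ratio to WT was then 1.78 for 1KO (1.07 to 3.05) and 1.91 for 1KO+1CI (1.14 to 3.29). Whether Hand1 moved with the mesoderm genes was not tested. Cdx1 (−0.11, adjusted p = 0.706) and Bmp4 (0.00, adjusted p = 0.997) were towards the lower end of the list. At day 4, 13 of the 14 were above WT in each mutant line.

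Of 10 genes of primitive endoderm, the other extraembryonic lineage of the blastocyst, 4 were called upward and 0 downward, with a median of 0.51. Lama1 (1.37, limma adjusted p = 0.0319), Dab2 (1.05, adjusted p = 0.0140) and Gata6, the factor that specifies the lineage (0.91, adjusted p = 0.0121), were higher in both mutant lines, and so was Pdgfra (0.58, adjusted p = 0.0415), named because it completes the called genes. Gata6 was at 0.606, 0.206 and 0.194 FPKM in WT, 1.84, 1.18 and 0.789 in 1KO, and 1.75, 2.35 and 1.29 in 1KO+1CI. Its level was low, as was that of Gata2, and on each day it was above WT in both lines. At the lower end, Gata4 was at −0.02 (adjusted p = 0.945), Sox7 at 0.37 (adjusted p = 0.0598) and Sox17 at 0.41 (adjusted p = 0.15).

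The genes with the most similar course over the 9 libraries were found by the Pearson correlation of log2(FPKM + 1), among 13288 genes that reached 1 FPKM in some library. The 9 points share their lines and days, so the values are descriptions. For Gata2 the nearest were Id3 (0.97), Klhl13 (0.96) and Poldip3 (0.94). Id3, a target of BMP signalling, was at 33.5, 24.5 and 22.9 FPKM in WT. In 1KO it was at 70.8, 35.8 and 42.1, and in 1KO+1CI at 54.4, 33.3 and 41.3. On each day its levels had the order of lines seen for Gata2, whose mutant lines were within counting error of each other at days 2 and 4. For Hand1 they were Asb16 (0.93), Apom (0.92) and AI506816 (0.89), and for Ascl2 they were Mrps24 (0.95), Ier5l (0.95) and Gm14296 (0.93). Tfap2c was nearest to Urgcp (0.98), Ulk1 (0.97) and Scmh1 (0.97), and Tead4 to Slc39a3 (0.96), Itpkc (0.94) and Vangl1 (0.93). Among the measured genes other than Gata3, the correlation was highest for Hand1 with Gata2 (0.80) and lowest for Ascl2 with Tead4 (−0.63). These genes thus did not share 1 course. Gata3 did not reach 1 FPKM and was left out of both the search and these pairs.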

How the data were processed

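Per the labels, Trim Galore was used for trimming, HISAT2 for mapping to mm10 and HOMER, after SAMtools, for the FPKM values per gene that the authors deposited. The sources used here give no versions, annotation or strand setting. The repeat table was not used. Of 15095 rows, 1 named 0 and 20 with a date for a symbol were left out (at most 0.117% of summed FPKM), leaving 15074 genes. Reads were recovered from the steps of FPKM values at the length within 100 bases of the annotated transcript that gave whole numbers within 0.15 (Hand1 and Ascl2); reads of genes with several transcripts are approximate. If a pair of reads counts as 2 steps, counting errors are larger than stated. Intervals are 95% and cover counting error only.

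Single libraries were compared as differences in log2(FPKM + 1). The line and day fit used limma 3.58.1 in R 4.3.3 on log2(FPKM + 1) over all genes, with a variance trend, two-sided tests and Benjamini-Hochberg adjusted p under 0.05. Lines had 1 library a day and no replicate cultures. The p-values therefore set each difference against departure from additivity, moderated over all genes, and not against a spread between cultures. Scripts were tested on simulated data. Alternatives were pseudocounts of 0.1 and 0.01, a mean of at least 1 FPKM, a common sum, median-ratio scaling, a threshold of 0.5, no trend, and leaving out libraries or days.

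All 9 genes, and from each of 10 lists the 3 genes with the highest and the 3 with the lowest difference over both mutant lines, with Eomes, T, Gata6, Pou5f1 and Col1a1 as defining genes, were named. For each of the measured genes reaching 1 FPKM, the 3 most correlated genes were also named. Genes and lists were chosen with earlier results of these data known. Positions came from GENCODE M21 (GRCm38) and promoters from RefSeq (GRCm38.p6). The values of a listed gene that the naming rule selects are not reported here.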

Additional observations from a re-analysis of the deposited data

Results flagged for a closer look

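For 4 of the 6 genes, both mutant lines lay on one side of WT on one day and on the other side on another day. These differences between days were not tested, because each line and day has 1 library. Each value below is the mean difference of the 2 mutant lines from WT in log2(FPKM + 1) on the later day minus that on the earlier day. For Tfap2c it was −1.36 from day 0 to day 2 and 2.21 from day 2 to day 4. For Tead4 it was 1.89 from day 2 to day 4 and 1.19 from day 0 to day 4. For Gata3 it was 0.98 from day 2 to day 4, at levels below 1 FPKM. For Ascl2 it was −1.62 from day 2 to day 4 and −1.34 from day 0 to day 4, the opposite direction. WT took part in each of these values, and the WT level itself moved between days 2 and 4 (Tead4 from 5.17 to 1.38 FPKM, Tfap2c from 14.0 to 1.27 FPKM, Gata3 from 0.745 to 0.156 FPKM).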

How the results depend on the processing

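Rescaling to a common sum or by median ratios left every count of the 6 genes as it was. Counts past 2-fold rose with smaller pseudocounts or a threshold of 0.5. Against WT at day 2, with a pseudocount of 0.1, 1KO had 2 up and 2 down and 1KO+1CI 2 up and 2 down; at 0.01, 3 and 2, and 2 and 2; at a threshold of 0.5, 2 and 2, and 2 and 3. At day 4 they were 3 up in 1KO, and 4 up and 1 down in 1KO+1CI, under each of the 3. Over these comparisons at days 2 and 4, the share of all genes past the threshold was 4.96% to 7.3% up and 2.74% to 4.09% down with 0.1, 6.96% to 9.37% and 4.11% to 5.41% with 0.01, and 7.09% to 10.7% and 5.32% to 8.33% at 0.5. At day 0 a threshold of 0.5 gave 1 down in 1KO+1CI against WT, and against 1KO 3 down at day 0 and 1 down at day 2, beside 12.5%, 3.62% and 1.67% of all genes.

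In the fit of both mutant lines against WT, Gata2 was no longer counted with a mean of at least 1 FPKM (0, not tested there), without the trend (0), without any 1 library (0 to 1, where the 1 is Ascl2) or without any day (0); it was called in 4 of 17 alternatives. All genes called ran from 90 to 402 up and 106 to 415 down over left-out libraries, and were 71 and 51 without day 0, 5 and 0 without day 2, and 173 and 155 without day 4; the last 3 fits have fewer samples. In 1KO against WT, a pseudocount of 0.1 called 1 (Gata2), and leaving out libraries gave 0 to 1. At days 2 and 4 the count was 1 (Tfap2c) with a mean of at least 1 FPKM, and 0 to 3 and 1 to 3 over left-out libraries. In the main fit 1.86% of all genes were called in 1KO against WT. Against day 0 it called 7.34% up and 8.11% down at day 2, and 11.3% and 12.3% at day 4. The shares of all genes for these contrasts under the alternatives are not given here, so these counts have no matched background.

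Signs turned only in comparisons in which the gene had not been called. Over both mutant lines and left-out libraries, Tead4 ran from −0.86 to 0.087 (positive without WT day 2, and 0.087 without all of day 2), Tfap2c from −0.37 to 0.73 and Gata3 from −0.27 to 0.23 (both lowest without WT day 4, with the same values without all of day 4; Gata3 was at −0.035 without 1KO day 0 and −0.13 without 1KO+1CI day 4). For day 4 against day 0, Ascl2 ran from −0.39 to 0.38, Gata3 from −0.44 to 0.10 and Tead4 from −0.92 to 0.055, each turning without WT day 4 (Ascl2 also without WT day 0, −0.074). For day 2 against day 0, Tead4 ran from −0.77 to 0.012, positive without 1KO+1CI day 2. No paired analysis was possible because the labels give no replicate numbers, beyond the day term of the limma fit, which sets the lines against each other within days. Where not stated, the cause was not tested. The depth limits Gata2 and Gata3 most, with about 10 and 11 reads in WT at day 4.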

Other observations

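Genes of pluripotent and germ cells, among which Tfap2c is also expressed, were measured as 2 further lists. Of 8 pluripotency genes, limma called 1 upward and 1 downward over both mutant lines, with a median of −0.28. Klf4, a naive pluripotency factor, was higher (0.86, adjusted p = 0.0144), at 30.3, 2.45 and 0.749 FPKM in WT and 63.1, 4.67 and 1.23 in 1KO at days 0, 2 and 4. Its relative Klf2 was lower (−1.05, adjusted p = 0.0161), at 161, 158 and 16.6 FPKM in WT and 130, 76.9 and 6.20 in 1KO. Nanog (0.36, adjusted p = 0.627), Esrrb (0.35, adjusted p = 0.524), Zfp42 (−0.67, adjusted p = 0.170), Tfcp2l1 (−0.35, adjusted p = 0.627) and Pou5f1 (−0.23, adjusted p = 0.456) were not called. Tfcp2l1 was below WT in both mutant lines at day 2 and above it at day 4, the course seen for Tfap2c: its day 2 levels were 25.3 FPKM for WT, 9.40 for 1KO and 5.94 for 1KO+1CI, and its day 4 levels 1.32, 2.11 and 2.12.

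Of 6 genes of primordial germ cells, 1 was called: Dppa3, which protects methylation in the zygote, was higher by 1.07 (limma adjusted p = 0.00332), at 35.7, 9.68 and 2.57 FPKM in WT and 89.7, 20.8 and 5.75 in 1KO. Kit (0.58, adjusted p = 0.117), Dnd1 (0.15, adjusted p = 0.771), Prdm14 (0.10, adjusted p = 0.817), Prdm1 (−0.05, adjusted p = 0.952) and Nanos3 (−0.61, adjusted p = 0.338) were not called, and the median was 0.13. Of 8 measured genes of surface ectoderm, 0 were called by limma, 1 was higher with an unadjusted p under 0.05, and the median was 0.06. Krt14, a keratin of basal epithelium, had day 0 levels of 5.74 FPKM for 1KO, 1.41 for 1KO+1CI and 0.212 for WT (1.06 over both lines, adjusted p = 0.0960), the order of lines that Gata2 and Ascl2 also had on that day. Grhl2 (0.19, adjusted p = 0.399), Dlx3 (0.08, adjusted p = 0.725), Krt8 (−0.12, adjusted p = 0.903) and Tfap2a (0.01, adjusted p = 0.983) differed less.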
